A study of Mus musculus with 18 samples.

Results

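The replication-dependent core histone genes were taken as every gene in the count tables that GENCODE M21 annotates as protein-coding and names with *Hist1h2*, *Hist1h3*, *Hist1h4*, *Hist2h*, *Hist3h* or *Hist4h* at its start. The rule used names only and found 61 of the 54446 genes counted, namely 18 H2A, 18 H2B, 12 H3 and 13 H4 genes. Nascent RNA was compared between WT mouse embryonic stem (mES) cells and mES cells labelled *Tet2*-/- (*Tet2*-KO). All groups were given 1 mM 5-ethynyl uridine (EU), a uridine analogue that enters new RNA and lets it be captured, for 10, 20 or 40 min. Genotype and time made 6 groups of 3 replicates, or 18 libraries. The cells of both genotypes grew with serum, LIF, the GSK3 inhibitor CHIR99021 (3 µM) and the MEK inhibitor PD0325901 (1 µM), and were passaged on gelatin to clear feeder cells. The methods name 1 line per genotype, so replicates are dishes, the genotype cannot be told apart from the line, and p-values measure only the spread between dishes.

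Core histones form the nucleosome, in which a tetramer of H3 and H4 is flanked by pairs of H2A and H2B. The replication-dependent genes are transcribed mainly in S phase, when new DNA has to be packaged. They lie in dense clusters, most lack introns, and many H2A and H2B genes sit head to head around a shared promoter. Their mRNAs end in a stem-loop in place of a poly(A) tail. The stem-loop is bound by SLBP, and U7 snRNP directs the cut just after it. mES cells cycle quickly and spend much of the cycle in S phase. In bulk libraries, the share of cells that transcribe these genes and the RNA made per such cell cannot be told apart.

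Of the 61 genes, 48 belonged to the Hist1 cluster on chromosome 13 of mm10, 22 of them between positions 21715763 and 22043676 and 26 between 23531050 and 23934851. The Hist2 cluster held 10 genes on chromosome 3 (96219865 to 96270132), the Hist3 cluster 2 on chromosome 11 (58948920 to 58956830) and *Hist4h4* stood alone on chromosome 6 (136801553 to 136804415). A single exon made up 56 of the genes. In the annotated transcripts, a stem-loop with 6 base pairs around a 4-base loop was found within 150 bases after the stop codon in 42 genes, 21 to 58 bases past it (median 31.5). Of the 44 genes with at least 60 annotated bases after the stop codon, 40 had it. The commonest forms are printed here as DNA because they set the H4 genes apart from the other classes, with the stem in capitals and the loop in lower case. The first was carried by 23 genes of H2A, H2B and H3, the second by 7 H4 genes including *Hist4h4*, and the others by 5, 2 (both H4) and 2 genes (*Hist1h4b* and *Hist1h4j*).

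Stem-loop of *Hist2h2aa2*, *Hist1h2bm*, *Hist1h3b* and others: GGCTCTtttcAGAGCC
Stem-loop of *Hist4h4*, *Hist1h4c*, *Hist1h4d* and others: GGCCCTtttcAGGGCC
Stem-loop of *Hist1h3e*, *Hist1h3f* and others: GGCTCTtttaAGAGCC
Stem-loop of 2 further H4 genes: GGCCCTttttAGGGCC
Stem-loop of *Hist1h4b* and *Hist1h4j*: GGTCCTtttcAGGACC

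On mm10 these letters lie at chr13:21722506-21722521 (plus strand) for *Hist1h2bm*, chr6:136803998-136804013 (minus strand) for *Hist4h4*, chr13:23561903-23561918 (minus strand) for *Hist1h3e* and chr13:21735437-21735452 (plus strand) for *Hist1h4j*. Single genes carried GGCCCTtctcAGGGCC (*Hist1h4a*), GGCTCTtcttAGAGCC (*Hist1h3g*) and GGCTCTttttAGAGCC (*Hist2h2ac*). The 4 genes with at least 60 bases after the stop codon and no such stem-loop were all H2B, namely *Hist1h2bc*, *Hist1h2bq*, *Hist1h2br* and *Hist2h2be*.

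RefSeq promoters (GRCm38.p6, 250 bases before to 50 after the start) were matched for 56 of the genes and searched on both strands. TATAAA, the letters of the TATA box, was found in 31 of them (55.4%) against 14.2% of all 27025 promoters, and CCAAT, the box bound by NF-Y, in 47 (83.9%) against 37.9%. The octamer ATTTGCAT, which POU-domain factors bind, was found in 13 (23.2%) against 1.75%. The letters divided the classes: CCAAT stood in 18 of 18 H2A, 16 of 16 H2B and 10 of 10 H3 promoters but in 3 of 12 H4 promoters, and ATTTGCAT in 7 H2A and 6 H2B promoters and in no H3 or H4 promoter. Head-to-head genes share much of these windows, so their counts are not separate. A match can lie anywhere in the window and on either strand, so it may belong to the neighbour. The TTTATA in the window of *Hist1h2bn* reads TATAAA on the strand of *Hist1h2ak*. The promoters printed next were chosen because the values below turn on their genes, with matches to the motifs, or to their reverse complements, in capitals. They are the region between *Hist1h2ak* and *Hist1h2bn* (chr13:21753826-21754125, plus strand), *Hist1h4j* (chr13:21734784-21735083, plus strand) and *Hist4h4* (chr6:136804382-136804681, minus strand), in which no match was found.

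*Hist1h2bn*: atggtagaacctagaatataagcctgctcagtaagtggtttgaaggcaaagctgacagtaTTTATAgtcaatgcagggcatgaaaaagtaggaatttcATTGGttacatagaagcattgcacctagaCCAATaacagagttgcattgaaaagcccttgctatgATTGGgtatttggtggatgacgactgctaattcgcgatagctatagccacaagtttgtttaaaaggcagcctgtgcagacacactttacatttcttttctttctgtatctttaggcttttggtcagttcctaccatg
*Hist1h4j*: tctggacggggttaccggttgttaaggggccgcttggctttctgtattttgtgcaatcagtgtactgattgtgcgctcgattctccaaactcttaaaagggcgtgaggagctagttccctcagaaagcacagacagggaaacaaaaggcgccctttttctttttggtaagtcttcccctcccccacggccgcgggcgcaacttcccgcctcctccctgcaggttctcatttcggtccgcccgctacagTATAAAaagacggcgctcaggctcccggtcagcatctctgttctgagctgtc
*Hist4h4*: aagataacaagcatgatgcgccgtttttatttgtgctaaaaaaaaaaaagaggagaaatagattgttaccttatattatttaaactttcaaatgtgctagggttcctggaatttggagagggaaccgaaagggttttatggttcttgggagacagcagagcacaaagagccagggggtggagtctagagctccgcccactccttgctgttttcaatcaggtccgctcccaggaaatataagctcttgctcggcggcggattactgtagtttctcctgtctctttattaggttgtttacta

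Libraries held 17931614 to 23069143 reads on genes and 44162 to 512186 reads on ERCC transcripts, RNAs that the study added in proportion to total RNA. A level here is the number of reads on a gene per 1000 ERCC reads of the same library. Reads on *Tet2* were not lost in libraries labelled *Tet2*-KO (level 182 ± 7.41 in WT and 254 ± 18.96 in *Tet2*-KO at 40 min, SD, n = 3), so genotypes are those of the labels. The summed level of 8 ES cell markers was 91.5 to 577 in WT and 136 to 685 in *Tet2*-KO. Its means in WT and *Tet2*-KO were 100 and 143 at 10 min, 335 and 341 at 20 min, and 550 and 629.5 at 40 min. For all protein-coding reads, *Tet2*-KO over WT was 2.06, 1.41 and 1.61 at these times. *Sox2* was listed at 0 in all libraries, and the reason was not tested. The sum of 8 fibroblast markers, which feeder cells would bring, lay between 0.385 and 1.17 in WT and between 0.493 and 2.75 in *Tet2*-KO, where it was above every WT library at 20 and 40 min, and none of the 8 was at 0 in all libraries. On the ERCC scale 3 of the 4 tested markers were higher in *Tet2*-KO on average, beside 80.5% of all genes tested. The part of these cells in the histone results was not tested. Reads that map to several places were not counted on genes, which matters for near-identical copies: the median histone gene had 46.4% of its 50-base stretches in no other gene (range 0 to 100%), and 29 of the 61 had at least 50%. The medians were 27.0% for H2A, 53.1% for H2B, 38.0% for H3 and 60.5% for H4, so reads from stretches that copies share are missing from these levels. An exon of a gene on the other strand overlaps each of the 18 H2A genes, and whether strand was used in counting was not given. Of 17 miRNA genes that lie within H2A genes on the other strand, 13 held reads, at most 18 in a library. Counting without strand would have set aside reads that fit both genes, so these reads point to counting by strand.

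Enough reads for testing were found on 56 of the 61 genes. *Hist3h2a*, *Hist2h2aa1*, *Hist2h2bb* and *Hist2h3c1* had 0 reads in every library, which by counting error alone allows up to 3 counted reads per library. Each shares exon sequence with another gene on its strand, and reads that fit both genes are set aside as ambiguous. The 0 therefore does not bound RNA from the shared stretches. *Hist1h2ap* had 118 reads over all libraries, 3 to 14 in each, and was not tested. Compared per kilobase of exon, mean levels were highest for *Hist2h2ac* (23.9 reads per 1000 ERCC reads per kb) in H2A, *Hist1h2bn* (17.2) in H2B, *Hist1h4b* (14.7) in H4 and *Hist1h3e* (7.95) in H3. The lowest tested genes per kb were *Hist1h2br* (0.0437, 2 to 19 reads per library), *Hist2h2be* (0.142) and *Hist3h2ba* (0.148). These ranks depend on the annotated exon length, which ran from 312 to 4446 bases, and on reads lost to copies. *Hist2h2be*, with 2620 annotated bases, had 912 reads over all libraries, and *Hist3h2ba*, with 614 bases, had 176.

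Histone RNA labelled by EU was first compared between genotypes as a sum over the 61 genes. After 10 min the summed level was 33.1 ± 4.43 (SD, n = 3) in WT and 69.2 ± 9.37 in *Tet2*-KO. After 20 min it reached 114 ± 13.5 in WT and 145 ± 25.5 in *Tet2*-KO, and after 40 min 215 ± 20.2 and 279 ± 34.4. The libraries of the genotypes did not overlap at 10 min (28.4 to 37.1 against 59.5 to 78.2) or at 40 min (196 to 236 against 255 to 318), and overlapped at 20 min. *Tet2*-KO over WT was thus 2.09 at 10 min, 1.27 at 20 min and 1.30 at 40 min, beside 2.06, 1.41 and 1.61 for all protein-coding reads. As a share of protein-coding reads, which does not use the ERCC scale, histone RNA stood at 0.0765% in WT and 0.0779% in *Tet2*-KO at 10 min, 0.0835% and 0.0752% at 20 min, and 0.0938% and 0.0754% at 40 min.

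The sums of the 4 classes are given next. H2A, which with H2B forms the outer dimers, had summed levels of 10.1 ± 1.15 in WT and 21.1 ± 3.61 in *Tet2*-KO at 10 min and 68.1 ± 8.20 and 89.0 ± 11.93 at 40 min (SD, n = 3). H2B levels were 10.97 ± 1.62 and 17.6 ± 2.92 at 10 min but 34.4 ± 1.82 and 34.5 ± 4.62 at 20 min and 56.4 ± 1.08 and 61.3 ± 5.87 at 40 min. H3 levels, in the inner tetramer, were 5.15 ± 0.761 and 13.3 ± 1.77 at 10 min and 40.8 ± 4.35 and 55.8 ± 7.30 at 40 min. H4 levels were 6.85 ± 0.917 and 17.3 ± 3.01 at 10 min and 49.4 ± 6.89 and 72.9 ± 10.01 at 40 min. The genotypes were apart for H3 at all 3 times, for H2A and H4 at 10 and 40 min and for H2B at 10 min. At 10 min the ratio of *Tet2*-KO to WT was 2.59 for H3, 2.52 for H4, 2.08 for H2A and 1.60 for H2B.

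**Figure D1:**
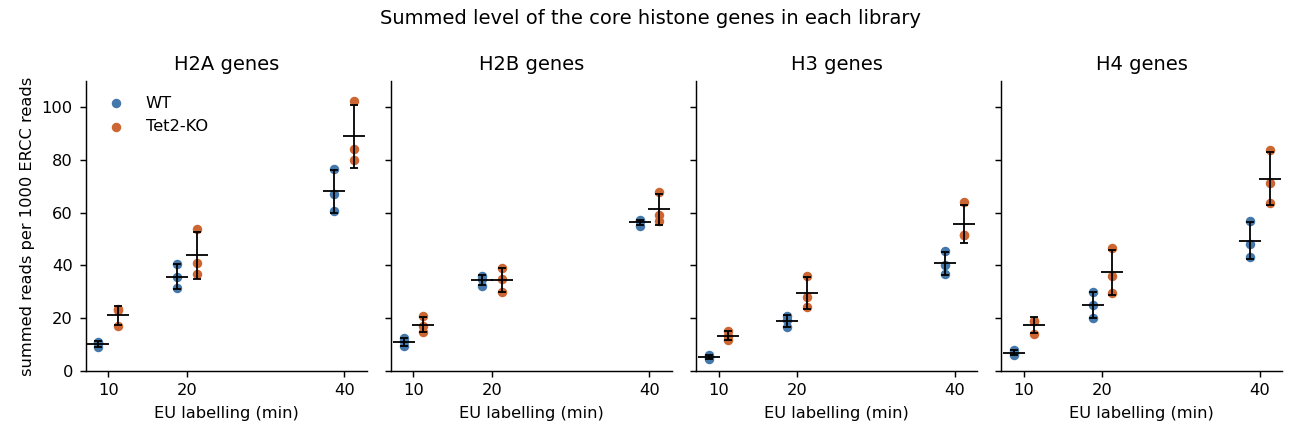
Summed level of each core histone class (reads per 1000 ERCC reads) against minutes of EU, 1 point per library, with the mean and SD of each group of 3 in black. At 10 min all classes lie higher in Tet2-KO, while at 20 and 40 min the H2B points of the genotypes overlap.

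The balance of counted reads between the inner and outer histones can be read within a library, with no spike-in. For each 100 reads on H2A and H2B genes, WT libraries had 55.9 to 57.9 reads on H3 and H4 genes at 10 min (mean 56.8 ± 0.993, SD, n = 3), 57.5 to 66.6 at 20 min (62.4 ± 4.58) and 69.2 to 76.6 at 40 min (72.3 ± 3.82). *Tet2*-KO libraries had 74.5 to 85.2 at 10 min (79.1 ± 5.44), 80.4 to 93.1 at 20 min (84.8 ± 7.21) and 82.7 to 87.2 at 40 min (85.6 ± 2.48). Every *Tet2*-KO library was above every WT library of the same time. H2B fell from 33.1% to 26.4% of histone reads in the WT means between 10 and 40 min and was 25.5% and 22.0% in *Tet2*-KO, whereas H2A stood between 30.2% and 31.9% in all 6 group means. Sums follow the most abundant genes, and no test was made on them. In H4, *Hist1h4d* gained most per min of EU, 0.639 reads per 1000 ERCC reads in WT and 0.994 in *Tet2*-KO. *Hist1h4b* gained 0.259 and 0.321.

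**Figure D2:**
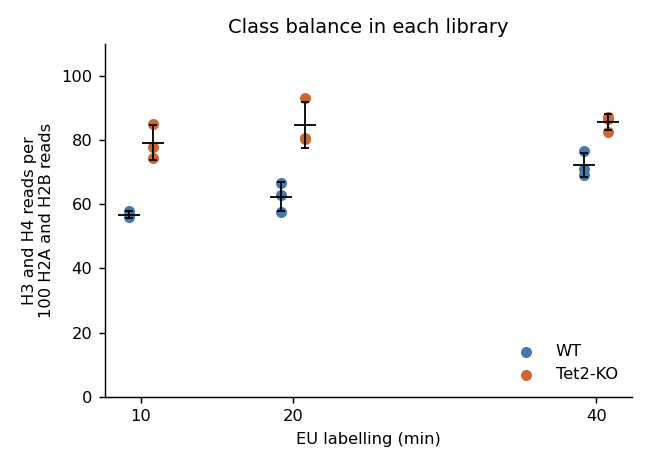
Reads on H3 and H4 genes for each 100 reads on H2A and H2B genes (vertical axis) in each library, by genotype and minutes of EU, with the mean and SD of each group of 3 in black. WT libraries lie between 55.9 and 76.6 and Tet2-KO libraries between 74.5 and 93.1, with no overlap at any single EU time.

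Single genes were then tested by edgeR's quasi-likelihood test on the ERCC scale, with Benjamini-Hochberg adjustment over 19910 genes at 0.05. Averaged over EU times, 50 of the 56 histone genes were higher in *Tet2*-KO and 3 were lower, beside 80.5% and 4.15% of all genes tested. The median log2 fold change was 0.66 for histone genes and 0.70 for all genes. When libraries were scaled on the genes themselves (TMM), which sets the median of all genes to 0.00, 12 histone genes were higher and 10 lower, beside 28.6% and 27.9% of all genes, with a median of -0.04. The 12 were higher on both scales and 3 of the 10 were lower on both, while 5 were higher by ERCC and lower by TMM. A direction given on the ERCC scale is therefore one against the spike-in.

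By class, 15 of 15 tested H2A genes (median log2 fold change 0.60), 13 of 17 H2B genes (0.49), 11 of 11 H3 genes (0.81) and 11 of 13 H4 genes (0.90) were higher in *Tet2*-KO on the ERCC scale, and 2 H2B genes and 1 H4 gene were lower. On the TMM scale, 1 H2A gene was higher and 1 lower (median -0.09), 2 H2B genes were higher and 7 lower (-0.19), 4 H3 genes were higher (0.12), and 5 H4 genes were higher and 2 lower (0.21). The change of scale moves all genes by nearly the same amount, and the difference between classes was not tested. By position, 18 of 21 genes of the first stretch of the Hist1 cluster (median 0.62), 25 of 26 of the second stretch (0.75) and 7 of 7 of the Hist2 cluster (0.56) were higher. *Hist1h2be* (log2 fold change 0.12), *Hist1h4n* (-0.05) and *Hist3h2ba* (0.49 with an SE of 0.33) did not pass.

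**Figure D3:**
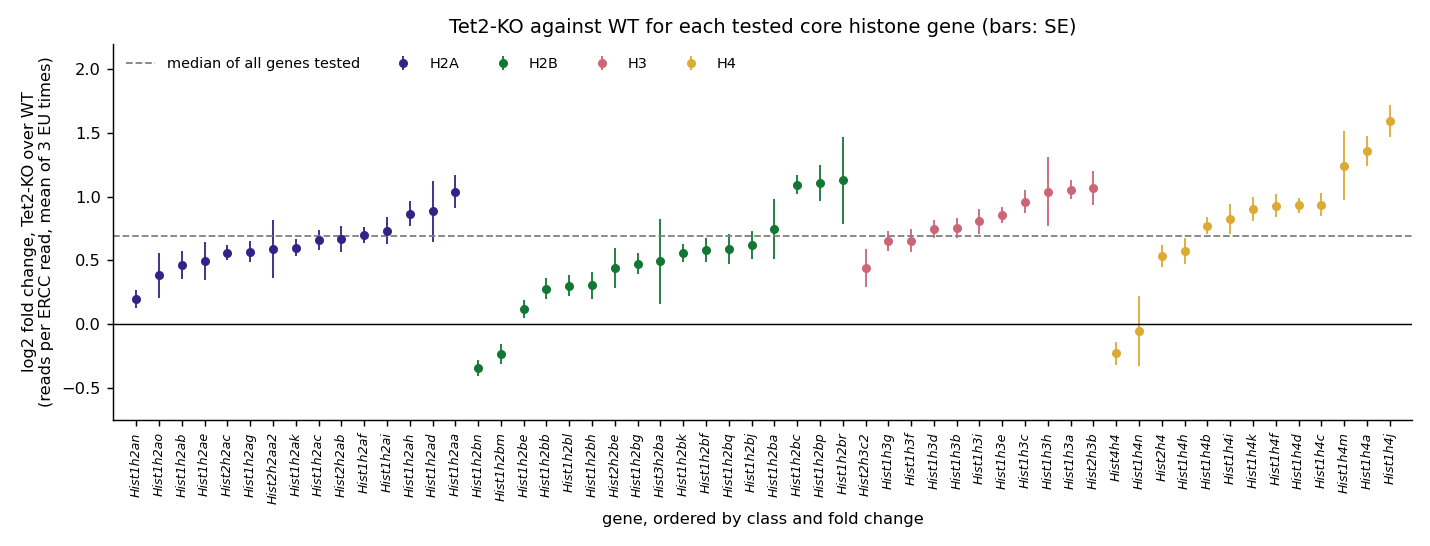
Log2 fold change of each tested histone gene, Tet2-KO against WT averaged over EU times, on the ERCC scale with bars of 1 SE (edgeR), ordered by class and value, and a dashed line at the median of all genes tested. Most genes lie above 0, and Hist1h2bn, Hist1h2bm and Hist4h4 are called below it.

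The most abundant gene per kilobase in each class shows the pattern in single libraries. *Hist2h2ac*, an H2A gene of the Hist2 cluster (chr3:96220361-96220880, minus strand), had WT levels of 3.15, 3.32 and 2.43 at 10 min, 10.4, 11.4 and 8.82 at 20 min, then 16.7, 17.8 and 21.1 at 40 min. In *Tet2*-KO they were 4.58, 7.19 and 6.45 at 10 min, 10.1, 14.8 and 11.2 at 20 min and 28.7, 23.9 and 21.5 at 40 min. The *Tet2*-KO libraries were above those of WT at 10 and 40 min and overlapped them at 20 min. The averaged log2 fold change was 0.56 (SE 0.06, adjusted p = 2.851e-19, edgeR), and -0.13 on the TMM scale, where it did not pass. *Hist1h3e* (chr13:23561534-23562369, minus strand), an H3 gene, rose by 0.86 (SE 0.06, adjusted p = 2.026e-34, edgeR), from 1.47, 1.45 and 1.17 in WT to 3.31, 3.75 and 3.91 in *Tet2*-KO at 10 min and from 8.91, 9.35 and 10.2 to 15.0, 12.1 and 11.3 at 40 min, with no overlap at any time. *Hist1h4b* (chr13:23757013-23757409, plus strand), an H4 gene, had 1.00, 1.16 and 1.07 in WT and 2.002, 2.85 and 2.92 in *Tet2*-KO at 10 min, and 7.60, 9.04 and 10.1 against 14.0, 11.3 and 11.6 at 40 min. The genotypes overlapped for it at 20 min only, and its log2 fold change was 0.77 (SE 0.07, adjusted p = 2.802e-26, edgeR). By TMM it had 0.078 and did not pass (adjusted p = 0.4201, edgeR).

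The most abundant H2B gene per kilobase, *Hist1h2bn* (chr13:21754123-21754503, plus strand), went the other way. Its levels in WT were 2.62, 3.08 and 2.54 at 10 min, 8.54, 9.19 and 8.38 at 20 min and 11.4, 11.8 and 10.6 at 40 min. In *Tet2*-KO they were 3.33, 2.04 and 3.56, then 4.90, 5.31 and 5.90, then 9.37, 7.93 and 7.59. The genotypes overlapped at 10 min, while every *Tet2*-KO library was below every WT library at 20 and 40 min. The averaged log2 fold change was -0.34 (SE 0.06, adjusted p = 2.122e-07, edgeR) and -1.04 on the TMM scale. Only 13.6% of its 50-base stretches occur in no other gene, and 47.9% of its 100-base stretches, so its level is uncertain. *Hist1h2bm* (chr13:21722044-21722567, plus strand), a second H2B gene with 56.2% of such stretches, was lower by -0.24 (SE 0.08, adjusted p = 0.003415, edgeR), but its libraries overlapped at each time. Its *Tet2*-KO levels at 10 min were 1.195, 0.885 and 2.39 beside 1.32, 1.48 and 1.00 in WT, the third replicate standing high, and the call was lost without the second *Tet2*-KO replicate at 10 min (adjusted p = 0.07612, edgeR).

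*Hist4h4*, the lone H4 gene on chromosome 6, has 92.9% of its 50-base stretches in no other gene and 100 to 324 reads per library. In WT its levels were 0.664, 0.740 and 0.463 at 10 min, 1.97, 2.42 and 1.82 at 20 min and 3.36, 3.90 and 3.27 at 40 min. In *Tet2*-KO they were 0.738, 0.816 and 0.935, then 1.17, 1.90 and 1.56, then 2.54, 1.81 and 2.28. The gene was thus higher in *Tet2*-KO at 10 min (log2 fold change 0.41, adjusted p = 0.008346, edgeR) and lower at 20 min (-0.43, 0.01145) and 40 min (-0.68, 5.167e-05), with libraries apart at 40 min only. On the TMM scale the averaged value was -0.92, and the averaged call on the ERCC scale (-0.23, SE 0.09, adjusted p = 0.01311, edgeR) was lost without the second WT replicate at 20 min (0.05303), the first *Tet2*-KO replicate at 20 min (0.07277) or the second *Tet2*-KO replicate at 40 min (0.06063). The opposite was seen for *Hist1h4j* (chr13:21735064-21735837, plus strand), with 75.4% of stretches in no other gene and 37 to 130 reads. Its WT levels were 0.117, 0.114 and 0.0722 at 10 min, 0.551, 0.507 and 0.463 at 20 min and 0.686, 0.747 and 0.744 at 40 min, and its *Tet2*-KO levels were 0.418, 0.483 and 0.571, then 1.18, 1.45 and 1.05, then 2.02, 1.45 and 1.70. Every *Tet2*-KO library was above every WT library of its time, with an averaged log2 fold change of 1.60 (SE 0.12, adjusted p = 3.505e-32, edgeR) and 0.90 on the TMM scale.

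Other genes at the ends of their classes were *Hist2h3b* (1.07), with the highest value of H3, and *Hist2h3c2* (0.44) and *Hist1h2an* (0.20), with the lowest values of H3 and H2A. The H4 genes *Hist1h4a* (1.36) and *Hist1h4m* (1.24) also rose and were chosen here after their values were seen. *Hist1h4m* had an SE of 0.46 at 10 min and 0.47 at 40 min. DESeq2 with size factors from genes did not call its average. *Hist1h2br* had 1.13 (SE 0.34), from 2 to 19 reads per library. The testis-type genes *Hist1h2aa* and *Hist1h2ba*, whose products package chromatin in male germ cells, were read at low levels and were higher in *Tet2*-KO by 1.04 (SE 0.13, adjusted p = 1.153e-14, edgeR) and 0.75 (SE 0.24, 0.002236). By TMM *Hist1h2aa* kept its call (0.34) and *Hist1h2ba* did not (0.060, adjusted p = 0.8444, edgeR). *Hist1h2aa* had levels of 0.517, 0.759 and 0.604 in WT and 2.22, 1.502 and 1.22 in *Tet2*-KO at 40 min, with no overlap.

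At 10 min, 50 of the 56 histone genes were higher in *Tet2*-KO, beside 79.0% of all genes, and edgeR called none lower, beside 2.10%, with none at an unadjusted p under 0.05 and none by DESeq2 on that scale. The median log2 fold change was 1.13, against 0.96 for all genes, and by class it was 1.43 for H3, 1.31 for H4, 1.08 for H2A and 0.86 for H2B. At 20 min, 29 were higher and 4 lower, beside 53.7% and 4.86% of all genes, with medians of 0.46 and 0.45. At 40 min, 29 were higher and 3 lower, beside 68.2% and 2.84%, and the median was 0.40 against 0.67 for all genes. In H2B, 3 of 17 genes were higher at 40 min and 2 lower (median 0.21), while 8 of 11 H3 genes (0.48), 9 of 13 H4 genes (0.46) and 9 of 15 H2A genes (0.41) were higher. On the TMM scale, 14 were higher and 5 lower at 10 min (22.5% and 21.4% of all genes), 5 and 5 at 20 min (20.3% and 18.2%), and 3 and 14 at 40 min (19.7% and 18.6%). Every *Tet2*-KO library was above every WT library for 47, 23 and 29 histone genes at 10, 20 and 40 min, beside 75.6%, 57.2% and 71.7% of all genes, and for 17 of them at all times, beside 51.6%. Every *Tet2*-KO library was below every WT library for 0, 1 and 2 histone genes, beside 2.11%, 6.42% and 3.53%. The 20 min counts rested on single libraries, with 17 higher without the second *Tet2*-KO replicate at 20 min and 2 lower without the first.

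The log2 difference of *Tet2*-KO from WT was lower at 40 than at 10 min for 32 of the 56 histone genes (57.1%, median change -0.70 on the log2 scale), beside 19.3% of all genes (median -0.29), by the interaction term in edgeR. The change was positive and called for no histone gene by edgeR, beside 0.552% of all genes, with none at an unadjusted p under 0.05 and none by DESeq2. For *Hist4h4*, *Hist1h2bn* and *Hist1h2bm* it went from above 0 to further below 0, and for the rest of the 32 it was smaller in size. The 32 were 8 of 11 H3 genes (median -0.99), 9 of 13 H4 genes (-0.80), 7 of 15 H2A genes (-0.62) and 8 of 17 H2B genes (-0.56). DESeq2 on the ERCC scale called 21, and TMM 14 (median -0.41), beside 6.12% of all genes lower and 3.89% higher. Those 14 were among the 32 and held 5 H4, 4 H3, 3 H2A and 2 H2B genes. *Hist1h4f* (chr13:23551258-23551648, minus strand) and *Hist1h3c* (chr13:23744973-23745602, minus strand) had the largest changes of those called, -1.53 and -1.52, and were chosen here after their values were seen. *Hist1h2br*, with 2 to 19 reads per library, had -1.88 and was not called (adjusted p = 0.1003, edgeR). *Hist1h4f* had levels of 0.382, 0.315 and 0.223 in WT and 1.00, 1.17 and 1.19 in *Tet2*-KO at 10 min, and 2.53, 2.51 and 2.62 against 3.26, 3.06 and 3.41 at 40 min. The genotypes were apart for it at both times, but the log2 difference was 1.87 at 10 min and 0.34 at 40 min. The positive change of *Hist1h2aa*, 0.14, did not pass (adjusted p = 0.8075, edgeR).

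**Figure D4:**
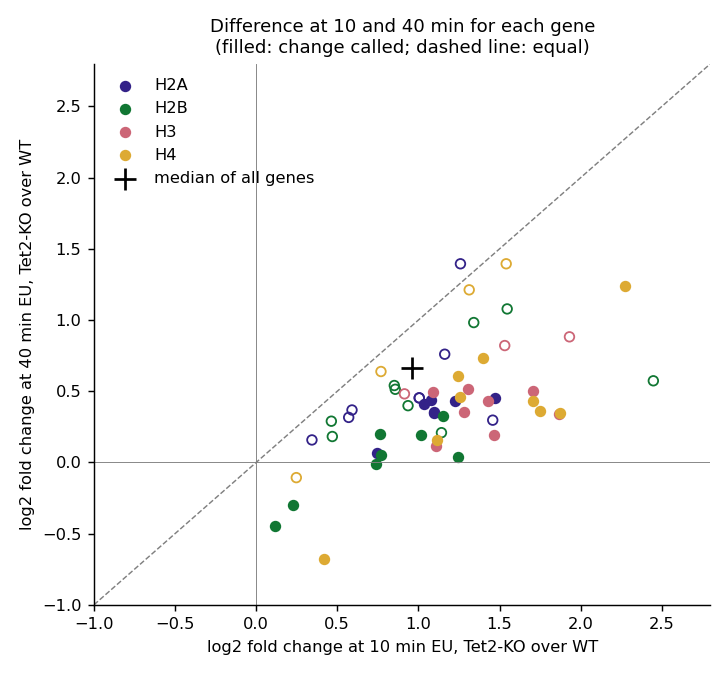
Log2 fold change of Tet2-KO against WT at 10 min of EU (horizontal axis) and at 40 min (vertical axis), on the ERCC scale, 1 point per tested histone gene, coloured by class and filled where edgeR called the change. The dashed line marks equal values and the cross the median of all genes. Most genes lie under the line, and Hist1h2aa is the gene above it, within its error.

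Over EU time the histone RNAs accumulated in both genotypes. From 10 to 40 min, 56 of 56 genes rose in WT (96.7% of all genes), with a median log2 change of 2.66 against 2.26 for all genes, and 56 of 56 rose in *Tet2*-KO (94.7%), with 1.96 against 1.996. Genes called lower were 0.0100% and 0.00502% of all genes. In WT the class medians were 3.03 for H3, 2.66 for H2A, 2.57 for H4 and 2.40 for H2B, and in *Tet2*-KO 2.14, 2.08, 1.81 and 1.86. On the TMM scale, which removes the common rise, 25 genes rose and 2 fell in WT (22.8% and 22.0% of all genes, median 0.37), while 3 rose and 9 fell in *Tet2*-KO (20.1% and 16.8%, median -0.04). *Hist1h2br* had the largest change in WT (3.89, from 2 reads upward) and *Hist1h3b* in *Tet2*-KO (2.72). *Hist2h2be*, an H2B gene with an annotated tail of 2192 bases after its stop codon and no stem-loop found, rose least in both, by 1.18 in WT and 0.64 in *Tet2*-KO (adjusted p = 0.02787, edgeR). It is also the gene with 100% of its 50-base stretches in no other gene, and its levels were 0.146, 0.224 and 0.139 at 10 min and 0.559, 0.228 and 0.349 at 40 min in WT.

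The slope of the level on EU time, with an intercept, was taken as a relative rate. Its log2 ratio of *Tet2*-KO to WT had a median of 0.24 over the histone genes, and 38 of 56 (67.9%) were faster in *Tet2*-KO, beside a median of 0.62 and 89.3% for protein-coding genes. The median SE of a single gene's log2 ratio was 0.262. TMM removes the common rise over EU time, so slopes on that scale are not rates. Only 23 genes had positive slopes in both genotypes there, and their median of -1.50 cannot decide the order of the rates. The class medians were 0.31 for H4, 0.28 for H2A, 0.25 for H3 and 0.04 for H2B. *Hist4h4* had the ratio 0.476 and *Hist1h2aa* 3.06. From 10 and 20 min alone the median was -0.03, with 27 of 56 faster in *Tet2*-KO. It was 0.35 (46 of 56) from 20 and 40 min and 0.46 (51 of 56) for slopes through the origin. The order of the genotypes in rate thus rests on the 40 min libraries when an intercept is fitted.

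Neighbours around a shared promoter were set side by side. Of 13 head-to-head pairs with annotated starts at most 1000 bases apart, 12 had both genes tested and 11 of these joined an H2A with an H2B gene. H2B had the lower averaged log2 fold change in 7 of the 11, with a median difference of -0.12. The GENCODE starts of *Hist1h2ak* and *Hist1h2bn*, at the ends of the region printed above, lie 296 bases apart. Of their 393 and 381 annotated bases, 390 and 378 are coding, so these starts need not be those of the RNA. The printed window was set by a RefSeq start instead. *Hist1h2ak* had 0.60 (SE 0.06) and *Hist1h2bn* -0.34 (SE 0.06), a difference of -0.94. At 20 min *Hist1h2ak* had levels of 4.70, 5.11 and 4.54 in WT and 4.81, 7.01 and 6.52 in *Tet2*-KO, while each *Hist1h2bn* level fell below WT. The pair *Hist1h2an* and *Hist1h2bp*, 243 bases apart, showed the reverse order, with 0.20 (SE 0.07) and 1.11 (SE 0.14). *Hist1h2ac* and *Hist1h2bc* had 0.66 (SE 0.08) and 1.10 (SE 0.07), and *Hist1h2ai* and *Hist1h2bl* 0.73 (SE 0.10) and 0.30 (SE 0.08). The differences within pairs were not tested. *Hist1h2bn* and *Hist1h2an*, on which the widest gaps rest, have 13.6% and 14.2% of their 50-base stretches in no other gene, so their levels are uncertain.

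**Figure D5:**
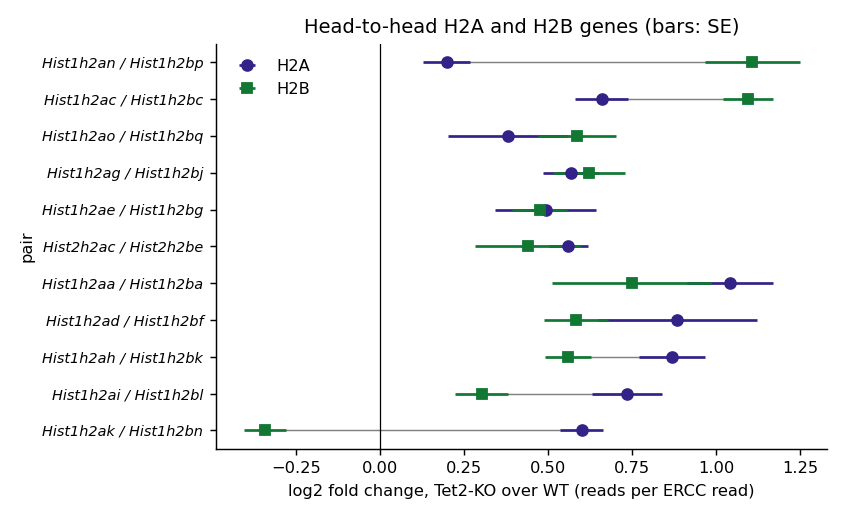
Log2 fold change of Tet2-KO against WT averaged over EU times, ERCC scale, for the 11 head-to-head pairs of an H2A and an H2B gene with both tested, with bars of 1 SE and a line joining the pair. Hist1h2ak lies at 0.60 and Hist1h2bn at -0.34, and Hist1h2an and Hist1h2bp lie in the opposite order.

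The other genes of the pathway lay close to the median of all genes on average. Of the factors that transcribe or process histone pre-mRNA, 19 of 19 tested were higher in *Tet2*-KO on the ERCC scale (median 0.68), beside 80.5% of all genes, and 6 were higher and 5 lower on the TMM scale (-0.02), beside 28.6% and 27.9%. The same shares of all genes stand beside the lists that follow. They included *Slbp*, which encodes the stem-loop binding protein (0.54), *Npat*, the coactivator of the histone loci (0.77), *Casp8ap2* (0.66) and *Hinfp*, a factor of H4 promoters (0.79). *Lsm10* and *Lsm11*, of the U7 snRNP, had 0.63 and 0.41, *Eri1*, a nuclease that acts on the stem-loop, 0.76, and *Coil*, a scaffold of Cajal bodies, the highest value of 1.21. By TMM *Slbp*, *Casp8ap2*, *Lsm10* and *Lsm11* turned to -0.15, -0.03, -0.06 and -0.29.

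Of the 22 S-phase genes listed, 21 were tested and 21 were higher (median 0.69), beside the 80.5% of all genes, from *Mcm2*, of the replicative helicase (0.39), to *Ung*, a uracil glycosylase (1.29). By TMM 9 were higher and 5 lower (-0.01). Of the histone chaperones, which hand histones to DNA, 12 of 12 were higher (0.67), from *Asf1b* (0.43) to *Rbbp7* (0.86), and 4 were higher and 5 lower by TMM (-0.02). Among the replacement histones, which are made outside S phase too, 8 of 9 were higher (0.51), with *H2afx* at 0.99, *H3f3a* at 0.79, *H3f3b* at 0.60, *Cenpa* at 0.51 and *H2afz* at 0.37, while *H2afj* (0.11) did not pass. By TMM 2 were higher and 6 lower (-0.18). Of the linker histones, which bind outside the nucleosome core, 7 of 8 were higher (0.55), from *H1fx* (0.14, not passing) to *Hist1h1c* (0.75), and 4 were lower by TMM (-0.15). The log2 difference of *Tet2*-KO from WT fell from 10 to 40 min for 8 of 19 pre-mRNA factors (median -0.29), 9 of 21 S-phase genes (-0.33), 5 of 12 chaperones (-0.37), 4 of 9 replacement histones (-0.33) and 5 of 8 linker histones (-0.68), beside 19.3% of all genes (-0.29) and 32 of 56 core histone genes (-0.70). Other single-exon protein-coding genes, 248 tested, had a median change of -0.41, and 41 of them were called.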

How the data were processed

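Per the labels and the study's methods, the authors trimmed reads with Trimmomatic 0.39, aligned them with HISAT2 2.2.1 to mm10 with GENCODE M19 and ERCC sequences, and deposited HTSeq 0.12.4 read counts per gene, without normalization. Libraries were made with a stranded total RNA kit without poly(A) selection. Feature type, strand setting and overlap mode were not given in the sources used here. Multi-mapped reads, 5.24 to 5.99% of all lines, were kept apart from genes. GENCODE M21 gave names and positions. Histone genes and lists were chosen with earlier results of these data known.

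Counts were kept by filterByExpr (minimum count 10, 19910 of 54446 genes) and fitted with edgeR 4.0.16 in R 4.3.3, as 1 group per genotype and EU time, with ERCC read totals as library sizes. Contrasts were averaged over times, at each time, and as an interaction. The procedure was tested on simulated data. The genes named were the most abundant per kb, highest and lowest of each class, those called lower, the small-cluster and testis types, the extremes over time, the untested, and fixed pathway genes with the extremes of each list. Others, in pairs or chosen after their values were seen, are named where they occur. Replicate pairs differed by more than counting noise (mean chi-square per gene 1.66 to 5.52), so each library was counted as its own sample. Intervals and floors cover counting error only. Alternatives were TMM, DESeq2 1.42.0 with each scale, no filter, sets of members, a replicate block and each library left out.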

Additional observations from a re-analysis of the deposited data

Results flagged for a closer look

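The genotype difference changed between 10 and 40 min of EU for 32 histone genes by the interaction test, and all 32 changes were negative. Of the genes named, they were -1.09 for *Hist4h4*, -1.03 for *Hist1h4j*, -0.997 for *Hist1h3e*, -0.99 for *Hist2h3c2*, -0.80 for *Hist1h4b*, -0.68 for *Hist1h2an*, -0.62 for *Hist2h2ac*, -0.60 for *Hist1h3b*, -0.56 for *Hist1h2bn* and -0.53 for *Hist1h2bm*, on the log2 scale. For *Hist4h4* the adjusted p was 1.247e-04 (edgeR), and the difference turned from higher to lower in *Tet2*-KO. On the TMM scale only *Hist4h4* and *Hist1h3e* of these 10 kept the call, and the adjusted p of the others was 0.0689 (*Hist1h4j*), 0.0949 (*Hist1h4b*), 0.209 (*Hist2h3c2*), 0.218 (*Hist1h2bn*), 0.225 (*Hist2h2ac*), 0.329 (*Hist1h2an*), 0.401 (*Hist1h3b*) and 0.684 (*Hist1h2bm*), by edgeR. DESeq2 on the ERCC scale did not call *Hist2h2ac* (0.0635), *Hist1h2an* (0.137), *Hist1h3b* (0.153) or *Hist1h2bm* (0.3975). With single libraries left out, the call was lost in 8 fits for *Hist2h3c2*, 5 for *Hist1h3b*, 5 for *Hist1h2bm*, 2 for *Hist1h4j* and 1 for *Hist1h2bn*. Without the third *Tet2*-KO replicate at 10 min the change of *Hist1h2bn* had an adjusted p of 0.07641 (edgeR), and that of *Hist1h2bm* was -0.026.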

How the results depend on the processing

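The scale decided most directions. On average, TMM called 12 histone genes higher and 10 lower with a median of -0.039, and DESeq2 with size factors from genes called 10 and 10 with -0.044. At 10 min TMM gave 14, 5 and 0.18 and DESeq2 12, 5 and 0.18. At 20 min both gave 5 and 5, with medians of 0.013 and 0.0053. At 40 min they gave 3, 14 and -0.27 (TMM) and 3, 13 and -0.28 (DESeq2). The rise over time was 25, 2 and 0.37 (TMM) and 22, 2 and 0.37 (DESeq2) in WT, and 3, 9 and -0.045 (TMM) and 1, 9 and -0.054 (DESeq2) in *Tet2*-KO. The interaction had 14 lower with -0.41 (TMM) and 13 lower with -0.43 (DESeq2). The values of genes that turned by TMM, with DESeq2 on genes in brackets, were -0.13 (-0.14) for *Hist2h2ac*, -0.49 (-0.50) for *Hist1h2an*, -0.25 (-0.25) for *Hist2h3c2*, -0.19 (-0.20) for *Hist3h2ba*, -0.25 (-0.26) for *Hist2h2be*, -0.15 (-0.16) for *Slbp*, -0.028 (-0.033) for *Casp8ap2*, -0.062 (-0.067) for *Lsm10*, -0.29 (-0.29) for *Lsm11*, -0.32 (-0.33) for *H2afz*, -0.091 (-0.10) for *H3f3b*, -0.18 (-0.19) for *Cenpa*, -0.31 (-0.31) for *Mcm2*, -0.27 (-0.27) for *Asf1b*, -0.55 (-0.55) for *H1fx*, -0.59 (-0.60) for *H2afj* and -0.16 (-0.16) for *Tet2*.

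DESeq2 on the ERCC scale called 2 genes lower at 20 min and 21 in the interaction. The rise over time in WT had a median of 2.44 in genes with at least 50% of stretches in no other gene, an alternative chosen after seeing the data. The median log2 rate ratio was -0.030 from 10 and 20 min alone, 0.35 from 20 and 40 min and 0.46 for slopes through the origin. By TMM, where slopes are not rates, it was -1.50 over 23 genes with positive slopes, and 8 had the larger slope in *Tet2*-KO. With single libraries left out the ratio on the ERCC scale was 0.14 to 0.30, with 34 to 42 genes faster. In such fits 48 to 51 genes were called higher on average and 2 to 3 lower. At 10 min 44 to 52 were higher, at 20 min 17 to 34 higher (2 to 5 lower), and at 40 min 22 to 31 higher (2 to 3 lower). The interaction then held 23 to 36. The interaction of *Hist1h2aa*, not called, ran from -0.13 to 0.32, turning without the first *Tet2*-KO replicate at 40 min or the first WT replicate at 10 min (-0.013). That of *Hist3h2ba*, not called either, ran from -0.998 to 0.52, turning without the second WT replicate at 10 min (0.0056) or 40 min. The average call of *Hist1h2an* was lost in 3 such fits and by DESeq2 on the ERCC scale (adjusted p = 0.2198), as was that of *Hist1h2bm* (0.2742). The cause was not tested.

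Replicate numbers were not taken to pair the libraries, since the correlation of same-numbered deviations was -0.126 to 0.144 and 6 libraries correlated best with their own number. With the replicate block, 52 values of named genes kept their direction and call, and the interaction of *Hist2h3c2* (-0.98) lost its call. The 23 counts and medians over the histone genes stayed within set bounds of their main values.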
